A study of Mus musculus and blank sample with 191 samples.

Results

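Wnt ligands, their receptors and their secreted antagonists were examined in the epithelium and stroma of the mouse uterus by spatial whole-transcriptome profiling (GeoMx), in which probes hybridized to a tissue section are released from chosen regions and counted by sequencing. Genes were taken by name: every symbol of the deposited normalized table made of Wnt, Fzd, Sfrp, Dkk or Rspo and a digit, together with Lgr4, Lgr5, Lgr6, Lrp5, Lrp6, Axin2, Lef1, Dact1 and Dact2. This gave 34 genes of the 14881 in that table. They were 9 Wnt ligands, 2 R-spondins, 8 Frizzled receptors, 5 co-receptors and Lgr receptors, 6 secreted antagonists and 4 intracellular members. The same names found 50 genes in the full count table of 19962 targets. The 16 left out by the authors' detection filter were Wnt1, Wnt2, Wnt2b, Wnt3, Wnt3a, Wnt6, Wnt8a, Wnt8b, Wnt9b, Wnt10a, Rspo2, Rspo4, Fzd7, Fzd9, Dkk4 and Sfrp5. Their counts, summed over regions, were 1.12 to 1.69 times those of the negative probe in epithelium and 1.23 to 1.88 times in stroma. For the 34 genes kept, the ratio ran from 1.60 to 33.8 in epithelium (median 4.30) and from 1.83 to 26.4 in stroma (median 3.90). Many of them lay close to background in epithelium, stroma or both. In epithelium these included Lgr6 (1.60), Wnt9a (1.84), Fzd4 and Dact1 (2.01 each), Rspo1 (2.06) and Wnt5b (2.17). Rspo3 (2.18), Sfrp4 (2.20), Lef1 (2.35) and Sfrp2 (2.41) were also low there. In stroma they included Lgr5 (1.83), Wnt11 (2.06), Wnt7a (2.20) and Dact2 (2.32). Levels given below were not corrected for background unless stated.

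The uteri came from 6 mice with 1 mutant PV copy of Thra, the gene of thyroid hormone receptor alpha 1 (Thra1PV/+, labelled PV/N, named PV1 to PV6), and 8 wild-type mice (WT, labelled N/N, named WT1 to WT8), with no treatment in the labels. PV is a frameshift at the receptor's C-terminal end, knocked into the gene itself and so carried by every cell, whose product blocks the action of normal thyroid hormone receptors. The Thra1PV/+ mice were aged 2.4 to 6.3 months and the WT mice 4.0 to 9.0 months (the labels give no unit, and months were assumed), so the youngest mice were mutant and the oldest WT. Regions were chosen by morphology and by staining for keratins and smooth muscle actin on cores of fixed tissue, and the epithelium label covers both the lining of the uterus and its glands. The strain and the cycle stage of these mice are not in the labels.

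The first plate held 95 regions, with 31 of Thra1PV/+ epithelium, 29 of WT epithelium, 21 of Thra1PV/+ stroma and 14 of WT stroma, and 61691 to 3130397 counts a region (median 653387). Counts were summed per mouse and compartment, since the mouse is the replicate. The sums held 61691 to 13492532 counts in epithelium (14 mice) and 85336 to 5195248 in stroma (13 mice, WT6 having no first-plate stroma). PV2 gave 1 shallow region in each compartment. Simple-epithelium and fibroblast markers matched the compartment label of all 95 first-plate regions. Of 94 second-plate regions they placed 36 opposite to the label, so that plate entered only as an alternative. All 12 columnar epithelial markers were higher in epithelium, with a summed level of 2463 to 8975 CPM (counts scaled to a common library total) against 207 to 666 in stroma, and 9 of 10 fibroblast markers were higher in stroma (3767 to 21059 CPM against 525.7 to 2298 in epithelium). Markers of each compartment were thus counted in the other as well.

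Wnt proteins are lipid-modified secreted signals that bind a Frizzled receptor together with the co-receptors Lrp5 or Lrp6. In the canonical branch this stabilizes beta-catenin, which acts with Tcf and Lef factors on target genes such as Axin2. R-spondins raise the response by binding Lgr receptors, while Sfrp proteins capture Wnts and Dkk proteins block the co-receptors. In the uterus the pathway is known for its part in gland formation, in patterning of the reproductive tract and in the response of the stroma to an embryo.

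The first comparison asked in which compartment each gene was expressed, within 13 mice. Of the 34 genes, 30 differed between compartments by edgeR's quasi-likelihood test at an adjusted p under 0.05, against 63.0% of all genes tested. At an unadjusted p under 0.05 there were 31, against 66.5% of all genes. They split into 11 higher in epithelium (28.4% of all genes) and 19 higher in stroma (34.6% of all genes). The median log2 fold change of the 34 genes, epithelium over stroma, was -0.52, beside -0.05 over all genes. Most Frizzled receptors and Lgr receptors were on the epithelial side. Both R-spondins and all 6 secreted antagonists that were kept were on the stromal side. In most mice the negative probe also made up a larger share of the counts in stroma. In PV1 it was 56.0 of 1.35e+07 counts in epithelium and 27.5 of 5.20e+06 in stroma. With the negative probe subtracted, 11 of the 34 genes were higher in epithelium and 17 in stroma. Fewer cells of a type and less RNA per cell cannot be told apart in such sums.

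**Figure D1:**
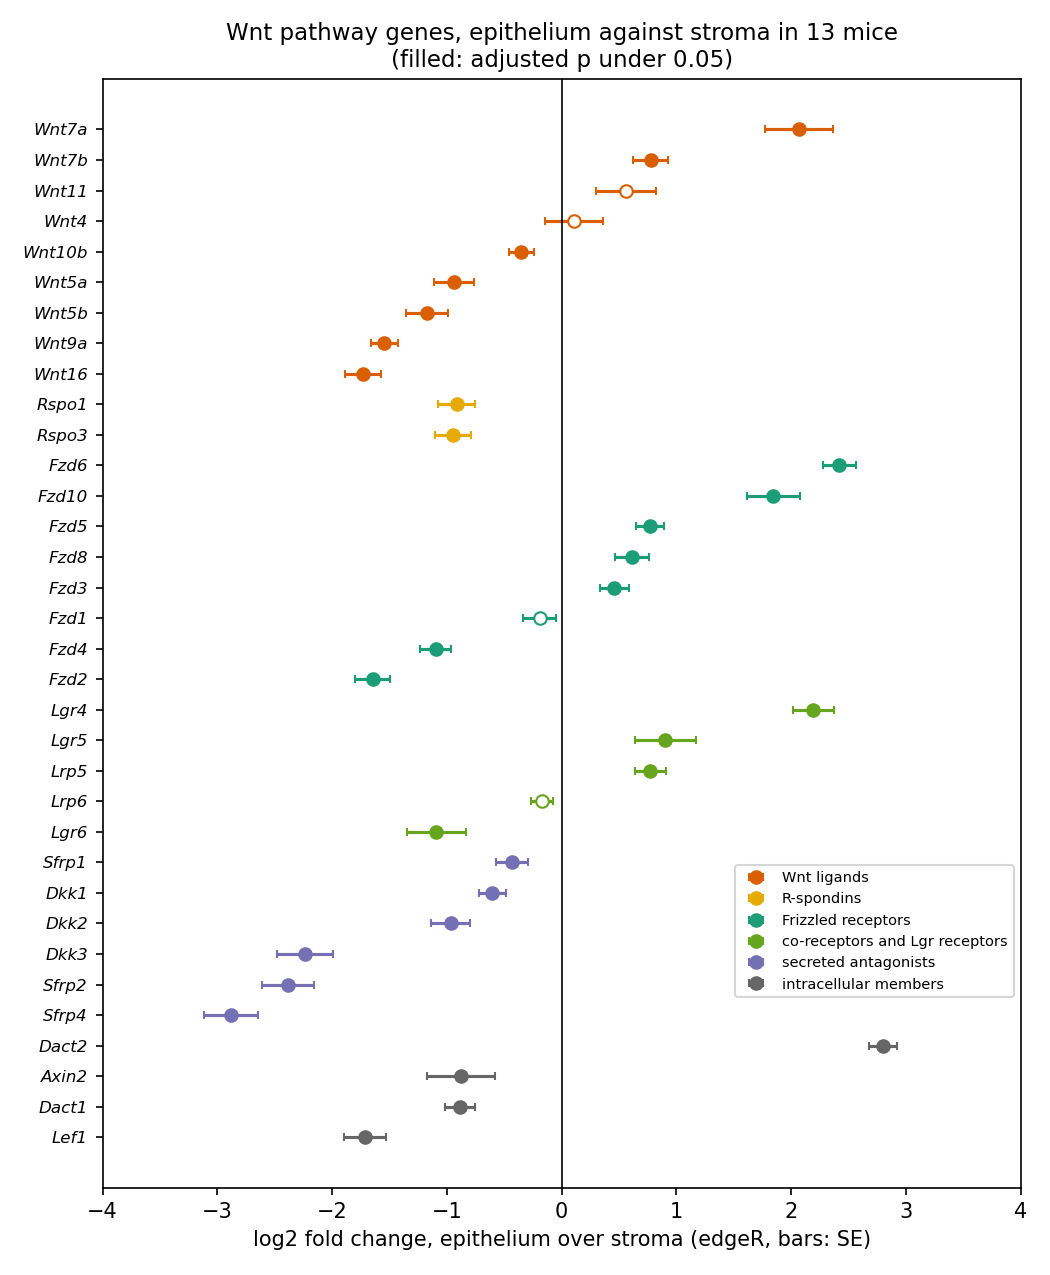
Log2 fold change between epithelium and stroma for the 34 genes, colored by role, from the paired edgeR fit over 13 mice. Bars are standard errors, filled points passed an adjusted p of 0.05 and open points did not. All 6 secreted antagonists and both R-spondins lie left of 0 (higher in stroma), and 5 of 8 Frizzled receptors lie right of 0 with an adjusted p under 0.05.

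Of the 9 Wnt ligands, 2 were higher in epithelium, 5 were higher in stroma and 2 did not pass the test. Wnt7a, a ligand of the uterine lining needed for tract patterning and glands, had 3.56 to 8.56 log2 CPM in epithelium (median 5.19, n = 14) and 3.14 to 4.37 in stroma (median 4.00, n = 13). It was higher in the epithelium of 12 of 13 mice, WT2 being the exception, and the ranges overlapped. The log2 fold change was 2.07 ± 0.30 (SE, adjusted p = 7.23e-06, edgeR). Wnt7b, a close relative, followed with 0.78 ± 0.16 (adjusted p = 0.000262, edgeR) and was higher in the epithelium of 11 of 13 mice, but with both plates it was at 0.32 and no longer passed (adjusted p = 0.111).

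On the stromal side, Wnt16 had 4.01 to 6.77 log2 CPM in stroma (median 5.26) and 3.15 to 4.83 in epithelium (median 3.81). Every one of the 13 mice had more in stroma, by 1.73 ± 0.16 on the log2 scale (adjusted p = 1.8e-08, edgeR). Wnt9a had 4.16 to 5.59 log2 CPM in stroma (median 4.89) and 3.27 to 3.99 in epithelium (median 3.44), and these ranges did not overlap. Its log2 fold change was -1.54 ± 0.12 (adjusted p = 1.6e-09, edgeR). Wnt5a, a mostly non-canonical ligand that guides tissue growth and cell polarity, had 6.10 to 8.21 log2 CPM in stroma (median 7.57) and 5.66 to 7.36 in epithelium (median 6.46). It was higher in stroma in 12 of 13 mice, with WT1 the other way, and its log2 fold change was -0.94 ± 0.18 (adjusted p = 0.000144, edgeR). With both plates it was at -0.27 and no longer passed (adjusted p = 0.124). Its relative Wnt5b was higher in the stroma of all 13 mice, with a log2 fold change of -1.18 ± 0.18 (adjusted p = 2e-05, edgeR).

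Wnt4, which serves decidualization of the stroma, was shared between the compartments. It had 4.03 to 6.27 log2 CPM in epithelium (median 5.41) and 3.89 to 7.66 in stroma (median 4.91), with 8 of 13 mice higher in epithelium. The log2 fold change was 0.10 ± 0.25 (adjusted p = 0.744, edgeR), and its sign turned with the scaling, at -0.03 under upper-quartile scaling. Wnt11 had 2.87 to 5.93 log2 CPM in epithelium (median 3.97) and 3.25 to 4.40 in stroma (median 3.82), at 0.56 ± 0.26 (adjusted p = 0.0696, edgeR). Its call depended on the settings: it passed in 6 of 23 alternatives, such as no gene filter (0.64, adjusted p = 0.0349) and without PV3 (0.67, adjusted p = 0.0275). The remaining ligand, Wnt10b, passed the test toward stroma at -0.35. Its mean within-mouse difference was -0.20 (exact sign-flip permutation p = 0.0784, two-sided, n = 13), with 5 of 13 mice higher in epithelium. Wnt10b lay near the negative probe, at 1.81 times its counts in epithelium and 2.12 times in stroma.

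The R-spondins, which amplify Wnt signals, both had more RNA in stroma. Rspo1 had 3.97 to 5.56 log2 CPM in stroma (median 4.40) and 2.39 to 4.26 in epithelium (median 3.71). Rspo3 had 3.78 to 5.34 in stroma (median 4.57) and 3.27 to 4.38 in epithelium (median 3.78). The ranges of both overlapped between compartments, but Rspo1 was higher in the stroma of 12 of 13 mice and Rspo3 in all 13. The log2 fold changes were -0.91 ± 0.16 for Rspo1 and -0.95 ± 0.16 for Rspo3 (adjusted p = 6.98e-05 and 3.54e-05, edgeR).

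Their receptors were split. Lgr4 had 3.99 to 7.12 log2 CPM in epithelium (median 6.20) and 2.89 to 5.18 in stroma (median 4.01), and was higher in epithelium in every mouse but PV2. Its log2 fold change was 2.19 ± 0.18 (adjusted p = 4.49e-09, edgeR). Lgr5, a marker of stem cells in several epithelia, had 3.06 to 6.51 log2 CPM in epithelium (median 4.89) and 3.11 to 4.97 in stroma (median 3.59). It was higher in the epithelium of 10 of 13 mice, by 0.90 ± 0.27 on the log2 scale (adjusted p = 0.00689, edgeR), and with both plates it was at 0.46 and no longer passed (adjusted p = 0.137). Lgr6 went the other way at -1.09 ± 0.26 (adjusted p = 0.00122, edgeR), with 2.89 to 6.84 log2 CPM in stroma (median 3.75) and 2.48 to 4.95 in epithelium (median 3.38). Its 2 highest stromal values, 6.84 in WT5 and 6.50 in PV6, stood apart from the other mice. The mean within-mouse difference was -0.66 (exact sign-flip permutation p = 0.0559, two-sided, n = 13), with 3 of 13 mice higher in epithelium. Lgr6 lay near the negative probe in epithelium, at 1.60 times its counts. With both plates Lgr6 was at 0.01 and no longer passed. Of the co-receptors, Lrp5 was higher in epithelium at 0.77 ± 0.13 (adjusted p = 6.29e-05, edgeR), while Lrp6 was at -0.17 ± 0.09 (adjusted p = 0.122, edgeR).

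Of the 8 Frizzled receptors, 5 were higher in epithelium, 2 in stroma, and Fzd1 did not pass. Fzd6, a receptor of the planar polarity branch, had 6.69 to 8.45 log2 CPM in epithelium (median 7.38) and 4.40 to 5.74 in stroma (median 4.96). The ranges did not overlap, and the log2 fold change was 2.42 ± 0.14 (adjusted p = 5.57e-11, edgeR). Fzd10 had 4.19 to 8.51 log2 CPM in epithelium (median 6.31) and 3.55 to 5.13 in stroma (median 4.37). All 13 mice had more Fzd10 in epithelium, at 1.84 ± 0.23 (adjusted p = 1.23e-06, edgeR). Fzd5, Fzd8 and Fzd3 were higher in epithelium by smaller log2 fold changes of 0.77, 0.61 and 0.46. For Fzd8 the mean within-mouse difference was 0.45 (exact sign-flip permutation p = 0.108, two-sided, n = 13), with 10 of 13 mice higher in epithelium.

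Fzd2 was the reverse of Fzd6, with 6.25 to 8.13 log2 CPM in stroma (median 6.99) and 4.67 to 6.16 in epithelium (median 5.63). These ranges did not overlap either, and the log2 fold change was -1.65 ± 0.15 (adjusted p = 1.72e-08, edgeR). Fzd4, best known as a receptor of blood vessels, was higher in stroma at -1.10 ± 0.14 (adjusted p = 1.11e-06, edgeR). All 6 endothelial markers of the marker list were also higher in stroma, with 223 to 688 CPM against 58 to 150 in epithelium, and their part in the Fzd4 result was not tested.

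The secreted antagonists all had more RNA in stroma, with a median log2 fold change of -1.60. Sfrp4 had 3.46 to 8.78 log2 CPM in stroma (median 6.36) and 3.08 to 5.33 in epithelium (median 3.57). It was higher in stroma in 12 of 13 mice, the exception being the shallow PV2, and its log2 fold change was -2.88 ± 0.23 (adjusted p = 3.87e-09, edgeR). The mean within-mouse difference was -2.44 (exact sign-flip permutation p = 0.000732, two-sided, n = 13). Sfrp2 had 3.66 to 7.19 log2 CPM in stroma (median 6.21) and 2.39 to 4.95 in epithelium (median 3.88), and every mouse had more in stroma. Its log2 fold change was -2.38 ± 0.22 (adjusted p = 2.63e-08, edgeR). Dkk3, a divergent Dickkopf protein, also differed in this direction in all 13 mice, at -2.24 ± 0.24 (adjusted p = 2.01e-07, edgeR).

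The other 3 antagonists, Dkk1, Dkk2 and Sfrp1, had smaller log2 fold changes and lay near the negative probe in epithelium, at 1.82, 1.81 and 1.83 times its counts. In stroma they were at 2.37, 3.46 and 2.32 times its counts. Dkk1, which blocks the co-receptors, had 3.32 to 5.34 log2 CPM in stroma (median 3.99) and 2.48 to 4.95 in epithelium (median 3.52), at -0.60 ± 0.12 (adjusted p = 0.000173, edgeR). With both plates it was at -0.18 and no longer passed (adjusted p = 0.131). Dkk2 was at -0.97 ± 0.17 (adjusted p = 6.16e-05, edgeR). Sfrp1, at -0.43 ± 0.14 (adjusted p = 0.0108, edgeR), was higher in the stroma of 10 of 13 mice. Its mean within-mouse difference was -0.28 (exact sign-flip permutation p = 0.0803, two-sided, n = 13). The edgeR call of Sfrp1 was lost after subtraction of the negative probe (adjusted p = 0.0617), with both plates (adjusted p = 0.054) and without the mouse block (adjusted p = 0.0549).

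The intracellular members were split between the 2 paralogs Dact2 and Dact1, which both bind the Wnt relay protein Dishevelled. Dact2 had 5.56 to 7.66 log2 CPM in epithelium (median 6.79) and 3.27 to 4.67 in stroma (median 3.91), with no overlap. Its log2 fold change of 2.80 ± 0.12 (adjusted p = 1.83e-12, edgeR) was the highest of the 34 genes. Dact1 was higher in stroma at -0.88 ± 0.13 (adjusted p = 1.08e-05, edgeR), which fell to -0.19 with both plates and no longer passed (adjusted p = 0.345). Lef1, a DNA-binding partner of beta-catenin, had 3.89 to 6.86 log2 CPM in stroma (median 5.17) and 2.63 to 4.72 in epithelium (median 3.70). It was higher in the stroma of all 13 mice, at -1.71 ± 0.18 (adjusted p = 1.53e-07, edgeR). Axin2, a target and inhibitor of canonical signaling, had 5.64 to 7.67 log2 CPM in stroma (median 6.87) and 4.41 to 7.24 in epithelium (median 6.13). It was higher in stroma in 9 of 13 mice, at -0.87 ± 0.30 (adjusted p = 0.0155, edgeR), and with both plates it was at -0.41 and no longer passed (adjusted p = 0.0719).

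**Figure D2:**
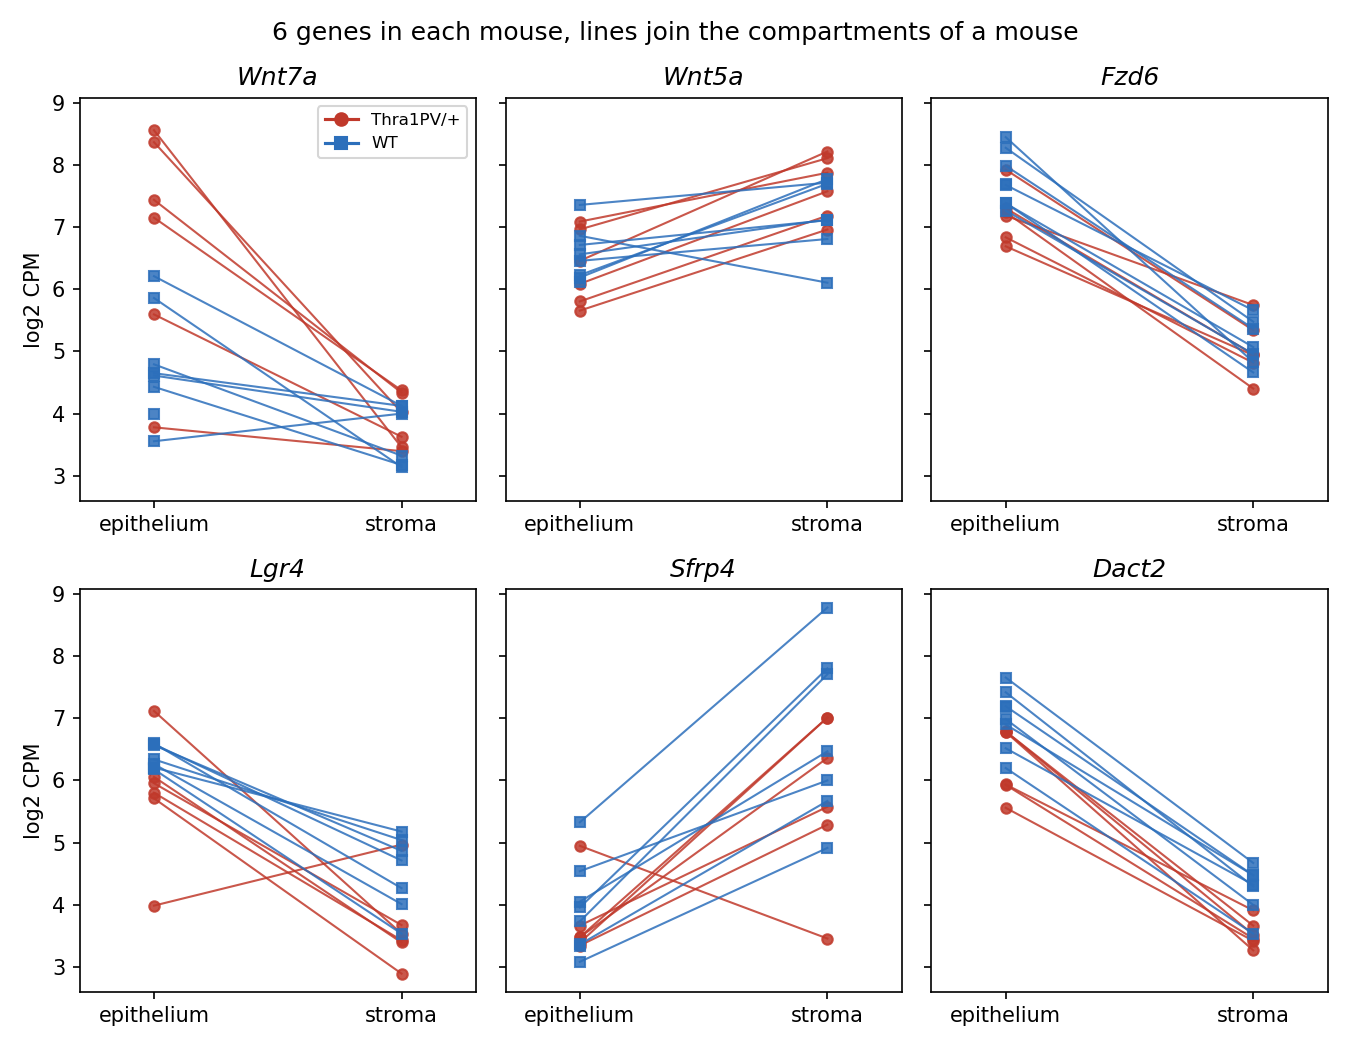
Log2 CPM of 6 genes in each mouse, with a line joining the epithelium and stroma of the same mouse (red circles Thra1PV/+, blue squares WT). Dact2 and Fzd6 fell from epithelium to stroma in all 13 mice, Sfrp4 went up in 12 of 13, and the spread of Wnt7a between mice lay mostly in epithelium.

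Other genes of the pathway, from a list apart from the 34, were also divided. Of 50 listed genes 46 were kept. Between compartments 20 were higher in epithelium (28.4% of all genes were), 15 were higher in stroma (34.6% of all genes) and 11 did not pass. All 3 genes acting on the Wnt protein itself were higher in epithelium: Porcn, which adds the lipid, at 1.51, Wls, which carries Wnts to the surface, at 0.75, and Notum, which removes the lipid, at 0.63. The Notum medians were 3.70 log2 CPM in WT epithelium and 3.88 in WT stroma, and 5.51 and 3.45 in Thra1PV/+ mice, with an interaction of 1.25 (unadjusted p = 0.0137, adjusted p = 0.601, edgeR). Among the 6 target genes, Sox9 (2.87), Ccnd1 (1.45), Tnfrsf19 (1.39) and Sp5 (1.21) were higher in epithelium, Cd44 was higher in stroma at -1.41, and Myc did not pass. Of 14 membrane proteins, 5 were higher in epithelium, led by the planar polarity cadherins Celsr2 (2.94) and Celsr1 (2.15), and 7 were higher in stroma, led by Prickle2 (-1.70). Ctnnb1, which encodes beta-catenin, was higher in epithelium at 1.24, and of 3 further secreted or membrane antagonists Apcdd1 (-1.78) and Frzb (-1.25) were higher in stroma.

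The second comparison asked whether these genes differed between Thra1PV/+ and WT mice in epithelium. None of the 34 passed edgeR's adjusted p, and neither did any other gene (0% of 14881). At an unadjusted p under 0.05 there were 7 (3 higher and 4 lower in Thra1PV/+ mice), where 8.22% of all genes passed. DESeq2 called 1 of the 34, Wnt7a, and 28 genes in all.

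**Figure D3:**
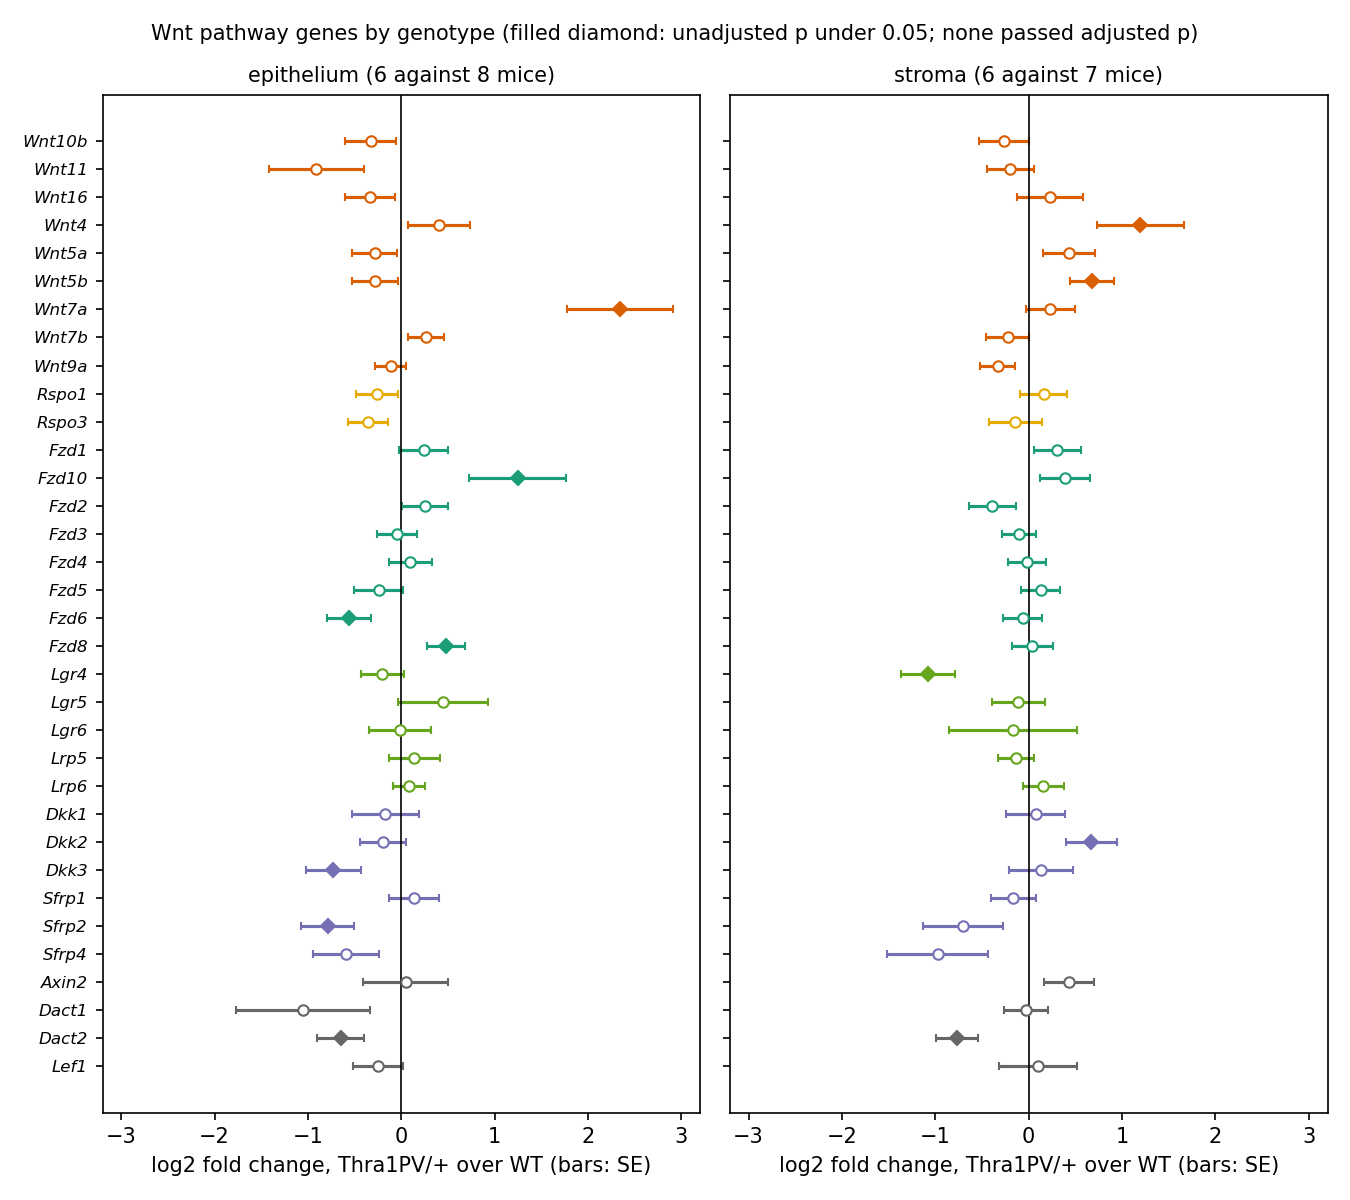
Log2 fold change between Thra1PV/+ and WT mice for the 34 genes, in epithelium (left, 6 against 8 mice) and stroma (right, 6 against 7 mice), colored by role as in the compartment plot, with standard errors as bars. Filled diamonds had an unadjusted p under 0.05, 7 in epithelium and 5 in stroma. None passed the adjusted p, and Wnt7a in epithelium had the highest value at 2.34.

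Wnt7a had the lowest p of the 34 genes in epithelium. In Thra1PV/+ mice it was at 3.78, 5.59, 7.15, 7.44, 8.36 and 8.56 log2 CPM (median 7.29), and in WT mice it ran from 3.56 to 6.21 (median 4.63, n = 8). Of the 6 mutant mice, 4 were above every WT mouse, PV1 lay within the WT range, and PV6 was among the lowest of all mice. The log2 fold change was 2.34 ± 0.57 (SE, p = 0.000697, adjusted p = 0.339, edgeR). The difference of mean log2 CPM was 2.05 (exact permutation p = 0.0193, two-sided, 6 against 8 mice). DESeq2 gave 2.47 with an adjusted p of 0.00734. These levels were well counted: PV4, PV3 and PV5 had 902, 131 and 223 Wnt7a counts in epithelium, at 38.9, 18.7 and 74.5 times the negative probe, while PV2 had 25.

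Age moved with this result. The 2 highest values belonged to the 2 mice aged 2.4 months, and PV6, at 6.3 months, was the oldest mutant. Among WT mice the highest were WT7 at 4.5 months (6.21) and WT4 at 4.0 months (5.86). Within Thra1PV/+ mice, Wnt7a and age had r = -0.78 (exact permutation p = 0.0667, n = 6) and Spearman's rho = -0.93 (exact permutation p = 0.0222, n = 6). Within WT mice r was -0.66 (exact permutation p = 0.0762, n = 8) and rho -0.78 (exact permutation p = 0.0295, n = 8). Without the 2 mice of each genotype farthest from its median age, r was -0.87 in Thra1PV/+ and -0.77 in WT mice. Few mice are left in these values, and no test was made on them. Over the 68 relations of age with the 34 genes within genotypes, none passed an adjusted p of 0.05 (Wnt7a 0.325 for r in both genotypes and 0.244 for rho). With age as a covariate the Wnt7a fold change was 1.41 ± 0.51 (adjusted p = 0.317, edgeR), and among the mice of 4.0 to 6.3 months it was 1.34 ± 0.58 (adjusted p = 0.482, edgeR). The fold change with both plates was 1.36 ± 0.56 (adjusted p = 0.778, edgeR).

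**Figure D4:**
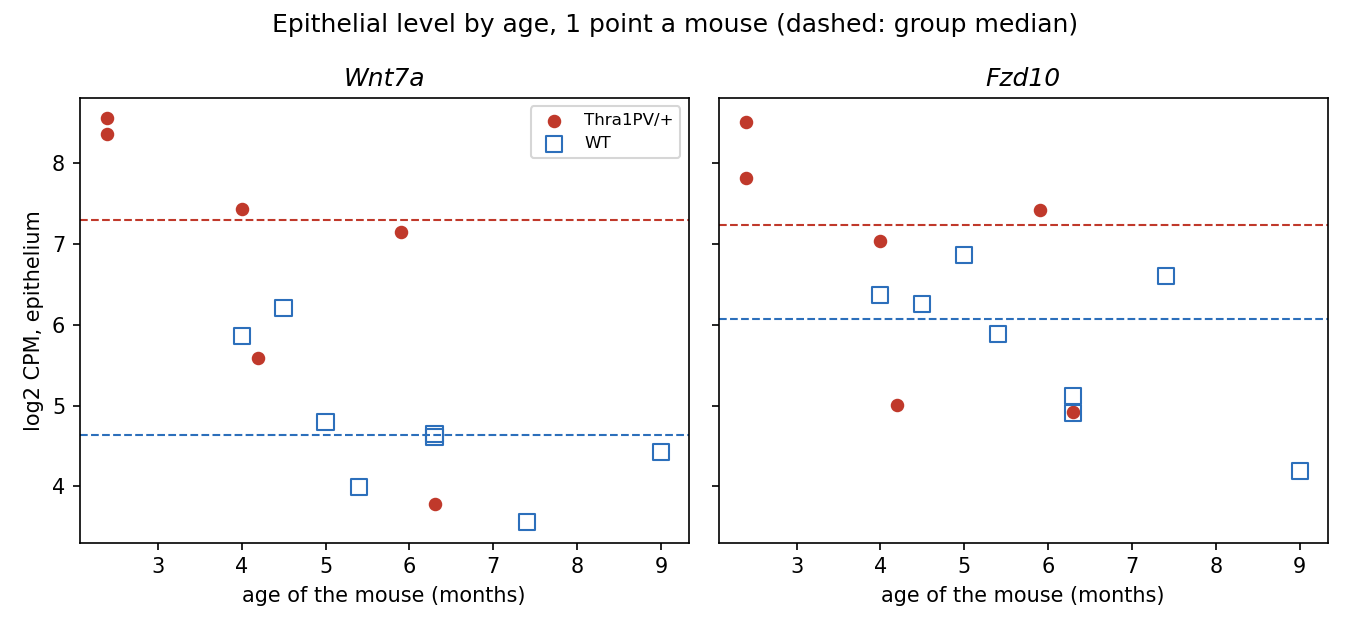
Epithelial log2 CPM of Wnt7a (left) and Fzd10 (right) against the age of the mouse in months, 1 point a mouse (filled circles Thra1PV/+, open squares WT), with dashed lines at the group medians. The Wnt7a medians were 7.29 and 4.63, the youngest mice had the highest values of both genes, and PV6, at 6.3 months, lay among the WT mice.

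Values of cell markers lay beside it. Of the 12 columnar markers, Krt8, a keratin of simple epithelium, was at 0.61 (unadjusted p = 0.0315, adjusted p = 0.575, edgeR) and Cldn7, a tight junction protein, at 0.61 (unadjusted p = 0.0348, adjusted p = 0.582, edgeR). The other 10 had an unadjusted p of 0.05 or more (8.22% of all genes were under 0.05). Among them Cldn3 (-0.54), Muc1 (-0.36) and Cdh1 (-0.22) were lower in Thra1PV/+ epithelium and the rest higher, with a median of 0.27 over the 12. Krt8 had 9.23 to 11.10 log2 CPM in Thra1PV/+ epithelium (median 10.24) and 9.16 to 10.29 in WT (median 9.81). Of 5 kept gland markers (8 listed, with Prss28, Prss29 and Ttr not kept) none passed the adjusted p. Of these, 3 were lower in Thra1PV/+ epithelium at an unadjusted p under 0.05, where 8.22% of all genes passed in either direction. Among them was Foxa2, the gland transcription factor, at -0.72. On the same list, the cytokine Lif was at 0.92 and Aldh1a1 at -0.48 (unadjusted p = 0.057 and 0.61, edgeR). The 5 kept gland markers summed to 94 to 685 CPM in Thra1PV/+ epithelium (median 160) and 86 to 998 in WT (median 396). Squamous markers were mostly below the detection filter: 8 of 12 were not kept, including the defining Krt5, Krt14 and Trp63. The 4 kept summed to 48.9 to 344 CPM in Thra1PV/+ epithelium (median 78.1) and 40.4 to 76.6 in WT (median 62.8). Of them 3 were higher in Thra1PV/+ mice at an unadjusted p under 0.05, where 8.22% of all genes passed in either direction. The other, Krt1, was at -0.36 (unadjusted p = 0.152, edgeR), and none of the 4 passed the adjusted p. Krt15 was highest in PV3, at 7.63 log2 CPM, and 3.03 to 4.07 in WT mice. With Foxa2 as a covariate the Wnt7a fold change was 2.09 ± 0.81, and with Krt8 it was 2.43 ± 0.67 (unadjusted p = 0.0194 and 0.00214, adjusted p = 0.857 and 1, edgeR).

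The regions of single mice showed how unevenly Wnt7a was spread within the epithelium. Across 59 epithelial regions of the 13 mice with more than 1, the log2(Q3 value + 1) of Wnt7a ran from 1.36 to 7.59 in 30 Thra1PV/+ regions and from 1.00 to 6.61 in 29 WT regions. Within PV1 alone, 15 regions spanned 1.36 to 7.45. After subtraction of each mouse's mean, Wnt7a correlated with Krt8 at r = 0.87 and with Foxa2 at r = -0.79, and among the 34 genes it had both the most positive value with Krt8 and the most negative value with Foxa2. Within genotypes the values were 0.87 and 0.87 for Krt8 and -0.86 and -0.74 for Foxa2 (Thra1PV/+ and WT), PV1 and PV4 giving 15 and 8 of the 30 Thra1PV/+ regions. Of the 6 mice with 4 or more regions, 5 had a Wnt7a to Krt8 correlation of 0.75 to 0.98 while WT3 (4 regions) had -0.36, and 5 had a Wnt7a to Foxa2 correlation of -0.97 to -0.76 while WT5 (6 regions) had -0.11. Dact2 went the other way, with r = -0.76 for Krt8 and 0.55 for Foxa2. With the fibroblast gene Dcn, r was 0.60 for Dact2 and -0.40 for Wnt7a. Dkk3, higher in stroma, had r = -0.69 for Krt8 and 0.67 for Dcn. The part of stromal RNA in these relations was not tested. These are descriptions over regions that share mice, slides and the scaling factor of their region. The labels do not separate lining from glands, and the part of the mix of regions in the mouse sums was not tested.

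**Figure D5:**
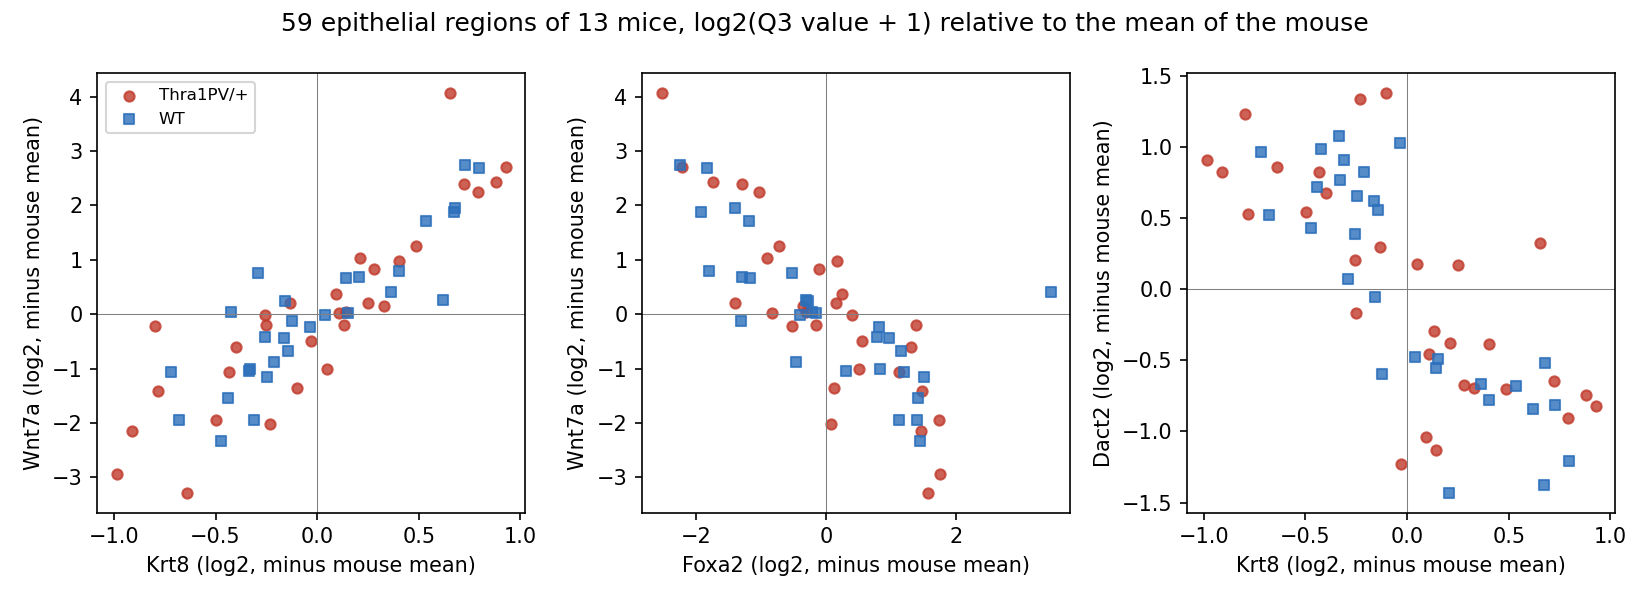
Wnt7a against Krt8 (left), Wnt7a against Foxa2 (middle) and Dact2 against Krt8 (right) in 59 epithelial regions of 13 mice, as log2(Q3 value + 1) minus the mean of the mouse (red circles Thra1PV/+, blue squares WT). Regions with more Krt8 and less Foxa2 had more Wnt7a and less Dact2 in both genotypes, with r = 0.87, -0.79 and -0.76.

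The other 33 genes were also set against Wnt7a across the 14 epithelial sums, after removal of the genotype means (Wnt7a as the reference was chosen after its values were seen). With p-values adjusted across the whole table none passed 0.05, nor did any of the remaining genes (0% of 14880). At an unadjusted p under 0.05 for both r and rho there were 6, all positive, where 8.04% of all genes passed. Fzd2 had r = 0.89 and rho = 0.88 (permutation p = 0.00049 and 0.00067, adjusted over all genes 0.14 and 0.0987). Lgr5 had r = 0.81 and rho = 0.79 (permutation p = 0.00123 and 0.00266, adjusted 0.196 and 0.129). The other 4 were Fzd3, Axin2, Fzd10 and Lef1, with r from 0.76 down to 0.68. Without the 2 mice farthest from the median of Wnt7a, r was 0.85 for Fzd2 and 0.67 for Lgr5. For the other 4 it was 0.78 (Fzd3), 0.57 (Axin2), 0.55 (Fzd10) and 0.41 (Lef1). Within genotypes Fzd10 had r = 0.93 in Thra1PV/+ mice and 0.17 in WT mice. All genes were measured in the same mice, which differed in age. The part of age and of the mix of regions in these relations was not tested.

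Since Axin2 is a textbook target of Tcf and Lef factors, the promoters of members were searched for the core letters these factors bind, CTTTGA or CTTTGT on either strand, in the 300 bases around each RefSeq start (build GRCm38.p6). Of the 27 promoters listed for 21 of the genes, 6 held such a core (1 each of Dkk1, Dkk2, Fzd1, Lef1, Wnt11 and Wnt5b), while 31.2% of all 32851 promoters of this length did. The promoters of Wnt7a and Axin2 held none in this window and that of Dkk1 held 3, and these are shown to let the letters be compared. A thyroid hormone receptor half-site, AGGTCA on either strand, was in 16.3% of all promoters and in those of Wnt16 and Dact2, and Dact2 is shown as the gene with the highest epithelial fold change of the 34. Each sequence is on the gene's own strand, and capitals mark the matched letters, which read TCAAAG or TGACCT where the match lies on the other strand.
Wnt7a promoter, chr6:91411304-91411603 (minus strand): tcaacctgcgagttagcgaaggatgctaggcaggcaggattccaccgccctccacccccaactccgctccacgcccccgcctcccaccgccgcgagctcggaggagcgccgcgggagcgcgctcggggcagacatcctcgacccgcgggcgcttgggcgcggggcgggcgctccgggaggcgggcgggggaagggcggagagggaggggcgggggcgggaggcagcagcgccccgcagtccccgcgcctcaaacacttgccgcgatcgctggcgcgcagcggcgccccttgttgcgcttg
Axin2 promoter, chr11:108920099-108920398 (plus strand): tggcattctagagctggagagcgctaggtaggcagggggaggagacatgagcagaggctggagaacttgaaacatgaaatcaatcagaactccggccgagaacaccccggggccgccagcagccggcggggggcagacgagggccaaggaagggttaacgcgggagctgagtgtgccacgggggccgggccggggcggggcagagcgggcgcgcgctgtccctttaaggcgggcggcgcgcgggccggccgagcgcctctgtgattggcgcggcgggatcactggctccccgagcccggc
Dkk1 promoter, chr19:30549447-30549746 (minus strand): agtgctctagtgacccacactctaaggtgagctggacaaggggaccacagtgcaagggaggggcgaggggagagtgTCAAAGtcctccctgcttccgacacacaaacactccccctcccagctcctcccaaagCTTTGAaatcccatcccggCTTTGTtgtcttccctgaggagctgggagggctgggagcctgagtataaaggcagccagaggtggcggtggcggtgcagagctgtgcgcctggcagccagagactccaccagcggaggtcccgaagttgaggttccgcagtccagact
Dact2 promoter, chr17:14203782-14204081 (minus strand): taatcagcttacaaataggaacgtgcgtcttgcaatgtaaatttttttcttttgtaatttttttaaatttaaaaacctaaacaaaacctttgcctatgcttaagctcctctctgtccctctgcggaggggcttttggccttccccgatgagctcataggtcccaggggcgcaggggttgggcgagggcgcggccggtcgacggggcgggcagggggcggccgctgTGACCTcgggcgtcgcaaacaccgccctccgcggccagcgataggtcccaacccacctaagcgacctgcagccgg
A match is a description of letters, not of a bound site.

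Wnt7a itself is a protein-coding gene at chr6:91363981-91411363 on the minus strand, Axin2 at chr11:108920349-108950783 on the plus strand, Dkk1 at chr19:30545863-30549665 on the minus strand and Dact2 at chr17:14195052-14204304 on the minus strand (GENCODE vM21, GRCm38). The positions of the probes within these genes were not used here.

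Among receptors in epithelium, Fzd10 had 4.92 to 8.51 log2 CPM in Thra1PV/+ mice (median 7.23) and 4.19 to 6.86 in WT mice (median 6.07). Of the 6 mutant mice, 4 lay above every WT mouse and PV1 and PV6 lay below the WT median. Among these 4 was PV2, whose 7.82 rests on 15 counts in its single shallow region. The log2 fold change of Fzd10 was 1.25 ± 0.52 (unadjusted p = 0.0286, adjusted p = 0.575, edgeR), and the difference of means was 1.01 (exact permutation p = 0.143, two-sided, 6 against 8 mice). Fzd6 was at -0.56 and Fzd8 at 0.47, and Lgr4 and Lgr5 were at -0.21 and 0.45, with adjusted p from 0.575 to 0.862.

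Dact2 and Sfrp2 were the next genes by p in epithelium. Dact2 had 5.56 to 6.79 log2 CPM in Thra1PV/+ epithelium (median 6.36) and 6.20 to 7.66 in WT (median 7.08). All 6 mutant mice lay below the WT median, and the ranges overlapped. The log2 fold change was -0.65 ± 0.25 (adjusted p = 0.546, edgeR), and the difference of means was -0.71 (exact permutation p = 0.0253, two-sided, 6 against 8 mice). It was -0.84 with age as a covariate, -0.80 with Krt8 and -0.59 with Foxa2 (adjusted p = 0.21, 1 and 0.87, edgeR). Sfrp2 had 2.39 to 4.95 log2 CPM in Thra1PV/+ epithelium (median 3.44) and 3.56 to 4.79 in WT (median 4.19), at -0.79 ± 0.29 (adjusted p = 0.534, edgeR). Its 4.95 came from the shallow PV2. Sfrp2 and Dkk3, at -0.73, are stromal genes in these data. Dcn, a fibroblast gene, had 5.14 to 6.71 log2 CPM in Thra1PV/+ epithelium against 6.86 to 7.67 in WT epithelium, with no overlap (-0.94, adjusted p = 0.322, edgeR), while all 10 fibroblast markers summed to 525.7 to 1866 CPM against 736 to 2298. With that sum as a covariate, Sfrp2 was at -0.83 and Dact2 at -0.64, and the part of stromal RNA was not itself tested.

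Axin2, the canonical target among the 34 genes, had 4.41 to 7.24 log2 CPM in Thra1PV/+ epithelium (median 6.13) and 4.48 to 6.83 in WT (median 5.99), at 0.05 ± 0.45 (adjusted p = 0.991, edgeR). The groups covered nearly the same range. Lef1 was at -0.25 ± 0.27, and Wnt4 and Wnt5a at 0.40 ± 0.34 and -0.29 ± 0.25 (adjusted p = 0.852, 0.787 and 0.792, edgeR). Of the 46 other pathway genes none passed the adjusted p in epithelium, and 3 had an unadjusted p under 0.05, where 8.22% of all genes did. These were Myc at 0.88, Tcf7 at 0.92 and Notum at 1.24, all higher in Thra1PV/+ mice.

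In stroma the same comparison also called none of the 34 genes by edgeR (0% of all genes), and DESeq2 called none of them either. At an unadjusted p under 0.05 there were 5, where 3.52% of all genes passed. They were Lgr4 and Dact2, lower in Thra1PV/+ mice, and Wnt5b, Wnt4 and Dkk2, higher.

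Lgr4 had 2.89 to 4.97 log2 CPM in Thra1PV/+ stroma (median 3.48, n = 6) and 3.54 to 5.18 in WT stroma (median 4.71, n = 7). All mutant mice but PV2, whose value rests on a shallow region, lay below the WT median. The log2 fold change was -1.08 ± 0.29 (adjusted p = 0.909, edgeR), the difference of means was -0.87 (exact permutation p = 0.0396, two-sided, 6 against 7 mice), and with both plates the sign turned, at 0.23 ± 0.34. Dact2 had 3.27 to 3.91 in Thra1PV/+ stroma (median 3.49) and 3.54 to 4.67 in WT (median 4.32), again with all 6 mutant mice below the WT median. It was at -0.77 ± 0.23 (adjusted p = 1, edgeR), with a difference of means of -0.71 (exact permutation p = 0.00466, two-sided, 6 against 7 mice). Both were near the negative probe in Thra1PV/+ stroma (1.04 to 2.53 times its counts for Lgr4 and 0.844 to 2.48 times for Dact2), and with the negative probe subtracted the values were -1.76 and -1.37. Both are epithelial genes in these data. The columnar markers in stroma summed to 207 to 666 CPM in Thra1PV/+ mice and 211 to 483 in WT mice. With that sum as a covariate the values were -1.20 for Lgr4 and -0.79 for Dact2, and the part of epithelial RNA was not itself tested. With age as a covariate Lgr4 and Dact2 were at -1.28 and -0.93 (adjusted p = 0.212 and 0.266, edgeR), and with both plates Dact2 was at -0.36.

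Wnt5b had 4.40 to 5.65 log2 CPM in Thra1PV/+ stroma (median 4.85) and 3.93 to 5.13 in WT (median 4.27). All 6 mutant mice lay above the WT median, with overlapping ranges, at 0.68 ± 0.24 (adjusted p = 1, edgeR; exact permutation p = 0.0513 for the difference of means, two-sided). Wnt4 had 3.89 to 7.66 log2 CPM in Thra1PV/+ stroma (median 4.90) and 3.96 to 5.46 in WT (median 4.91). Its fold change of 1.20 ± 0.47 (adjusted p = 1, edgeR) came with equal medians and 1 high mouse, PV4, and the difference of means was 0.31 (exact permutation p = 0.67, two-sided, 6 against 7 mice). The antagonists Sfrp4 and Sfrp2 were at -0.97 ± 0.54 and -0.71 ± 0.43, and Axin2 and Lef1 at 0.43 ± 0.27 and 0.10 ± 0.42, all with an adjusted p of 1 (edgeR). Of the 46 other pathway genes, Ror2 (0.95), Frzb (0.67) and Tcf7l2 (0.42) had an unadjusted p under 0.05 in stroma, where 3.52% of all genes did. None passed the adjusted p.

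Whether the genotype difference itself depended on the compartment was tested as an interaction within the 13 mice. None of the 34 genes passed by edgeR (0% of all genes) or DESeq2, and 7 had an unadjusted p under 0.05, where 7.16% of all genes did. The lowest p belonged to Wnt5b, with -0.97 ± 0.30 for the epithelial genotype difference less the stromal one (adjusted p = 0.579, edgeR), followed by Wnt7a at 1.43 ± 0.51 (adjusted p = 0.601, edgeR). With both plates these were 0.04 and -0.53, so both signs turned. The Wnt7a fold change in stroma was 0.23 ± 0.26 (adjusted p = 1, edgeR), on 1 to 60 counts a mutant mouse.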

How the data were processed

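Regions were profiled with a probe panel sequenced and counted per region. Per the file headers the authors used the GeoMx NGS pipeline, and per the labels R 4.1.2 and the mm10 build. The deposited count table holds expected counts per target with 0 replaced by 1, and the deposited normalized table holds signal values, scaled per region to its upper quartile (Q3). The negative-probe row (0.000527% of counts) was left out. The labels name 14 mice and the design text 13. The 14 of the labels were used, ages being read as months.

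First-plate counts were summed per mouse and compartment, rounded, limited to the 14881 filtered genes and tested with edgeR 4.0.16 (TMM, quasi-likelihood, Benjamini-Hochberg over all genes, two-sided, threshold 0.05) in R 4.3.3, with the mouse as a block between compartments. The deviations of the 2 compartments of a mouse correlated at 0.16 to 0.53 in 13 of 13 mice, against a median of -0.04 between mice. Fold changes of edgeR carry SEs. Log2 CPM used a prior count of 2. Exact tests ran over all 8192 sign flips or all 3003 (epithelium) and 1716 (stroma) divisions of the mice, and relations with Wnt7a over 100000 permutations within genotypes, adjusted over all genes. Regulatory letters were read from RefSeq promoters. Members, lists and the rule for named genes (17 genes chosen from uterine biology, the 2 lowest p per role and direction between compartments, the 3 lowest p per compartment between genotypes and the 2 lowest for the interaction) were chosen with earlier results of these data known. Replicates are mice. In simulated data with 200 genes changed 4-fold, the fits recovered 100% in the compartment and both genotype comparisons and 83.5% in the interaction. They also made 6 to 9 false calls in each comparison. The simulation gave all genes the same dispersion and held no effect of mouse, age or region mix. Its recovery is thus not that of the real fits. There Wnt7a, at 2.34 between genotypes in epithelium, had an adjusted p of 0.339 (edgeR). Alternatives were DESeq2 1.42.0, other scaling, filters and background handling, limma 3.58.1 on Q3 means (pseudocount 1), both plates, subsets of mice, each mouse left out, and age. Age-matched mice and marker covariates were added after seeing the data.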

Additional observations from a re-analysis of the deposited data

Results flagged for a closer look

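Among the 108 groups of mice looked at (27 named genes in 4 groups), 7 held a mouse far from the others of its group by Dixon's test, which chance flags in about 1 of 20 groups. In WT epithelium, WT6 (2 regions) had 6.65 log2 CPM of Dact1 where the next mouse had 3.48. In WT stroma, WT5 (3 regions) had 6.84 of Lgr6 against at most 3.87 in the others, and 4.37 of Sfrp2 against at least 6.21. In the mutant mice, PV6 had 6.50 of Lgr6 in stroma (2 regions), the next being 4.04, and 2.63 of Lef1 in epithelium (3 regions), the next being 3.62. PV2, with 1 region in each compartment, had 3.46 of Lrp5 in stroma against at least 5.18 in the others, and 4.95 of Sfrp4 in epithelium against at most 3.67. No cause was tested. Without PV6 the log2 fold change of Lgr6 between compartments was -0.88, and without WT5 it was -0.85, both still past the adjusted p. Each of these fits kept the other high mouse, and no fit left out both. The exact sign-flip permutation p of Lgr6 over all 13 mice was 0.0559 (two-sided).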

How the results depend on the processing

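The number of genes called between compartments (30, with 11 higher in epithelium and 19 in stroma) stayed within 1.5 times of itself under every alternative but both plates, which gave 19 (7 and 12), 36 of the 94 added regions lying on the other side of their label by markers. With no replicate block the paired count of 30 became 29, and each mouse left out gave 30 to 31. The counts between genotypes and for the interaction stayed at 0, except 1 gene in epithelium by DESeq2, Wnt7a. Signs turned for Wnt4 between compartments, at -0.034 under upper-quartile scaling, -0.16 without the replicate block, -0.044 without WT3 and -0.014 without WT5 (-0.044 to 0.36 over each mouse left out), and with both plates for Lgr6 between compartments (0.0085), Lgr4 between genotypes in stroma (0.23) and the interactions of Wnt5b (0.044) and Wnt7a (-0.53). The cause was not tested. Leaving out each mouse moved Wnt7a between genotypes in epithelium from 1.92 to 2.65, with adjusted p from 0.00734 to 1 over all its alternatives. Genes near the negative probe and the single shallow regions of PV2 limit what could be detected.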
